A study of Homo sapiens with 6 samples.

Results

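The genes described here are 10 members of the AP-1 and immediate early group of transcriptional regulators, namely FOS, FOSB, FOSL1, FOSL2, JUN, JUNB, JUND, EGR1, IER2 and JDP2. They were chosen by name, and each matched 1 of the 57500 genes in the deposited tables. Their RNA was measured by polyA-selected RNA-seq in 22Rv1 cells, an established line of human prostate cancer. The tested cells were 22Rv1 cells derived from a liver metastasis, which the labels call "Liver metastase drived" (3 libraries, here liver-derived), and they were set against 22Rv1 cells labelled Control with the genotype "Wilde Type" (3 libraries, here parental). The growth protocol, RPMI medium with fetal bovine serum, was the same for both groups, and the labels name no treatment, stimulation or time after feeding. The labels do not say how many metastases or derivations the liver-derived cells came from. The design text calls the libraries biological replicates, but the labels do not name separate cultures, so p-values measure the spread between these libraries.

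AP-1 is a dimer of basic leucine zipper proteins. A JUN protein pairs with another JUN protein or, more stably, with a FOS protein, and the pair binds short DNA elements in the control regions of genes for growth, migration and matrix remodelling. Immediate early genes such as FOS, JUNB, EGR1 and IER2 are transcribed without new protein synthesis when serum, growth factors or stress activate the MAP kinase pathways, and their RNAs are short-lived. In prostate cancer cells AP-1 proteins are known to bind and modulate the androgen receptor.

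In liver-derived cells JDP2 was 1.76-fold, FOSL2 1.62-fold, JUNB 1.48-fold and FOS 1.41-fold higher than in parental cells, and EGR1 was 2.14-fold lower. The other 5 genes, FOSB, FOSL1, JUN, JUND and IER2, did not pass the test with all 6 libraries. Without parental replicate 2, a library that stood apart from the rest, JUND and IER2 also passed as higher and JUN as lower. The count was therefore 4 higher and 1 lower of 10 with all libraries, and 6 higher and 2 lower of 10 without that library. Between these 2 fits, 3 of 10 members, and 22.6% of all tested genes, passed only without that library. JUN also passed in some other fits that kept it, and JUND and IER2 after a GC correction, as given below. The threshold was an adjusted p under 0.05 in edgeR's quasi-likelihood test, with Benjamini-Hochberg adjustment across the 19255 genes that passed the expression filter. Calls were frequent among all genes: 38.8% passed with all 6 libraries (17.5% higher and 21.3% lower), and 59.8% of the genes tested passed without parental replicate 2 (28.8% higher and 31% lower). The median log2 fold change over the members was 0.17, beside -0.0075 over all tested genes.

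Libraries held 28395265 to 53275252 counts. Parental replicate 2 differed from parental replicates 1 and 3 with a chi-square per degree of freedom of 55.3 and 61.8, whereas other pairs within a group ranged from 2.24 to 3.15. The common biological coefficient of variation was 9.57% with all libraries and 2.34% without parental replicate 2, against 9.55% to 10.9% when any other single library was left out. All 8 prostate epithelial markers passed the expression filter, and their summed level was 3297 to 3358 CPM in liver-derived libraries and 3104 to 3312 CPM in parental libraries. KLK3, which encodes prostate-specific antigen, fell to 7.52 ± 1.05 CPM in liver-derived cells, against 43.0 ± 3.91 CPM in parental cells (SD, n = 3 each; edgeR adjusted p = 5.78e-07). The 15 hepatocyte markers summed to 65.8 to 69.5 CPM in liver-derived libraries and 43.7 to 54.4 CPM in parental libraries, mostly ALB, which averaged 65.8 CPM and 47.7 CPM in these groups. Of the 4 hepatocyte markers tested 2 were higher, both named after their values were known, ALB (log2 fold change 0.46, edgeR adjusted p = 0.00538) and APOA1 (log2 fold change 1.78, edgeR adjusted p = 0.00167, at 0.628 CPM in liver-derived cells and 0.184 CPM in parental cells), and 1 was lower, ASGR1. Of the 15 markers 6 had at most 3 counts in every library, FGA was at 0 in all of them, and ASGR1 fell to 0.178 CPM in liver-derived cells, against 1.47 CPM in parental cells (edgeR adjusted p = 1.16e-05). The 12 stromal, endothelial and leukocyte markers summed to 22.2 to 24.6 CPM in liver-derived libraries and 22.8 to 26.8 CPM in parental libraries. Most of that sum was COL1A1, which averaged 18.3 CPM and 17.5 CPM in these groups, and CDH5 was at 0. Of the 8 tested 0 were higher and 2 lower. These were LUM (0.0674 CPM and 1.75 CPM in these groups, edgeR adjusted p = 1.81e-05) and COL3A1, named after its value was seen (0.790 CPM and 1.66 CPM, edgeR adjusted p = 0.00371). The part of all these markers in the differences described below was not tested. In bulk RNA, fewer cells of a type and less RNA per cell cannot be told apart.

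**Figure D1:**
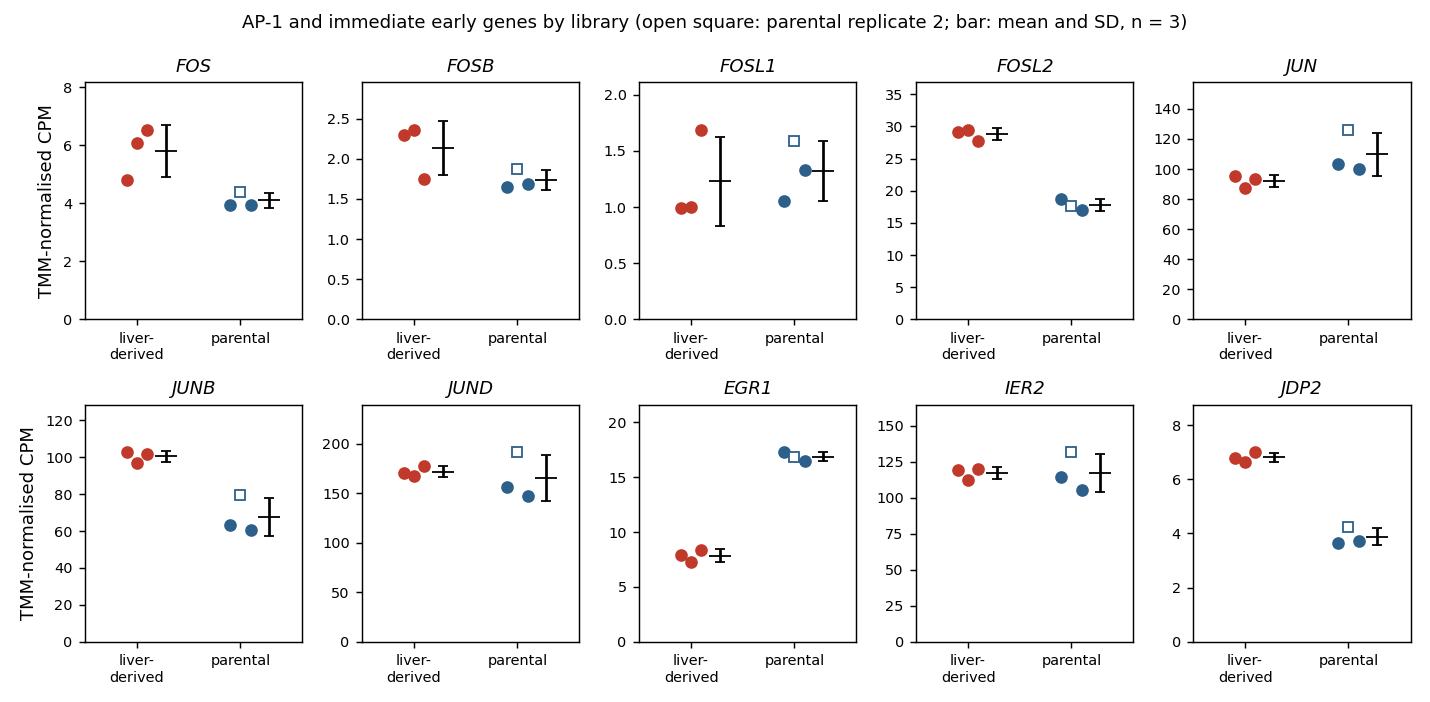
TMM-normalised CPM (vertical axes from 0) of the 10 genes in each of 3 liver-derived libraries (left) and 3 parental libraries (right); the open square is parental replicate 2 and the black bars give mean and SD (n = 3). FOS, FOSL2, JUNB and JDP2 sit higher in all liver-derived libraries and EGR1 sits lower in all of them, and parental replicate 2 is the highest parental library for FOS, FOSB, FOSL1, JUN, JUNB, JUND, IER2 and JDP2.

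Values below are CPM, that is counts scaled to a common TMM-adjusted library size, unless TPM is named. Among the FOS genes, which encode the partners that cannot pair with themselves, FOSL2 and FOS rose in liver-derived cells. FOSL2 (ENSG00000075426, GRCh38 chr2:28392448-28417312, plus strand, 7 exon blocks in the deposited gene model) encodes FRA2, a FOS protein without the strong activation domain of FOS. It had 29.1, 29.5 and 27.7 CPM in the liver-derived libraries and 18.8, 17.7 and 17.0 CPM in the parental libraries. Every liver-derived value lay above every parental value, and the spread within each group was small (28.8 ± 0.925 CPM against 17.8 ± 0.922 CPM, SD, n = 3 each). FOSL2 had a log2 fold change of 0.69 with an SE of 0.08 (edgeR adjusted p = 0.00012). Parental replicate 2 lay between the other parental libraries for FOSL2, and without it the log2 fold change was again 0.69, with an adjusted p of 4.61e-13 in edgeR.

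FOS (ENSG00000170345, chr14:75278774-75282230, plus strand) is the founding member of the family and the classic immediate early gene. Its level was 4.79, 6.08 and 6.53 CPM in liver-derived libraries, from 250, 170 and 317 counts, and 3.95, 4.39 and 3.94 CPM in parental libraries, from 192, 199 and 208 counts. The groups did not overlap, but the lowest liver-derived library lay close to the highest parental library. FOS had a log2 fold change of 0.50 with an SE of 0.13 (edgeR adjusted p = 0.0169), and 0.54 without parental replicate 2 (edgeR adjusted p = 0.000262). The FOS call rested on single libraries: the edgeR adjusted p was 0.0525 without parental replicate 1, 0.0531 when liver-derived replicate 2 was left out and 0.0805 when liver-derived replicate 3 was.

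FOSB and FOSL1 were the lowest members and did not pass the test. FOSB (ENSG00000125740, chr19:45467995-45475179, plus strand) had 2.30, 2.36 and 1.75 CPM in liver-derived libraries and 1.65, 1.87 and 1.69 CPM in parental libraries. The 95% interval of its log2 fold change ran from -0.07 to 0.65 (edgeR adjusted p = 0.187). FOSL1 (ENSG00000175592, chr11:65892049-65900573, minus strand), which encodes FRA1, had 0.996, 1.002 and 1.69 CPM in liver-derived libraries and 1.05, 1.59 and 1.33 CPM in parental libraries, from 28 to 82 counts a library. The groups overlapped for both genes. For FOSL1 the 95% interval ran from -0.66 to 0.50 on the log2 scale (edgeR adjusted p = 0.83), wide enough to hold a change of the size seen for FOS in the negative or the positive direction. Neither gene passed without parental replicate 2 (edgeR adjusted p = 0.109 for FOSB and 0.833 for FOSL1).

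The JUN genes were far more abundant, and they did not move together. Each of JUN, JUNB and JUND is a single exon block in the deposited gene model. JUNB (ENSG00000171223, chr19:12791496-12793315, plus strand), which encodes a weaker activator than JUN that can also oppose it, had 103, 96.9 and 102 CPM in liver-derived libraries and 63.4, 79.6 and 60.5 CPM in parental libraries. All liver-derived libraries were above all parental libraries, and parental replicate 2 was the parental library closest to them. The log2 fold change of JUNB was 0.57 with an SE of 0.11 (edgeR adjusted p = 0.00272) and 0.70 without parental replicate 2 (SE 0.03, edgeR adjusted p = 1.37e-19). JUNB shares 259 exon bases with HOOK2 on the opposite strand, which held 1338 to 3281 counts, and the strand setting of the counting is not given in the sources used here. HOOK2 was at 50.8 CPM in liver-derived cells and 61.6 CPM in parental cells. Whether HOOK2 reads entered the JUNB counts was not tested.

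JUN (ENSG00000177606, chr1:58780788-58784327, minus strand) encodes the strongest activator of the 3. It had 95.4, 87.4 and 93.1 CPM in liver-derived libraries and 103, 126 and 99.8 CPM in parental libraries. The liver-derived values were below all parental values, and parental replicate 2 was well above the other parental libraries. With all 6 libraries the log2 fold change of JUN was -0.25 (SE 0.10, 95% interval -0.48 to -0.03, edgeR adjusted p = 0.0711). Without parental replicate 2 it was smaller in size, -0.14, but the SE was 0.03 and the adjusted p 0.00037 in edgeR. Leaving out parental replicate 3 also gave a call for JUN (edgeR adjusted p = 0.0425).

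JUND (ENSG00000130522, chr19:18279760-18281622, minus strand), the JUN gene that is usually expressed steadily in unstimulated cells, had 170, 167 and 178 CPM in liver-derived libraries and 157, 192 and 148 CPM in parental libraries. Only parental replicate 2 lay above the liver-derived libraries. With all libraries the log2 fold change of JUND was 0.06 (95% interval -0.17 to 0.28, edgeR adjusted p = 0.695), and without parental replicate 2 it was 0.18 (95% interval 0.12 to 0.23, edgeR adjusted p = 3.79e-06).

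The 250 bases before the RefSeq start of these genes (GRCh38.p14, written 5′ to 3′ on the gene's strand) are shown for JUNB and JUND to set the 3 diverging JUN genes side by side, together with a 30-base site of JUN only, because the JUN window, that site included, lies inside the deposited gene model. Capitals mark motifs found by search on both strands. In JUNB (chr19:12791236-12791485, plus strand) they mark TATAAA, 31 bases before the start, which 10.7% of 35116 promoter windows of this length held. In JUND (chr19:18281623-18281872, minus strand) they mark the cyclic AMP response element TGACGTCA, 200 bases before the start, which 1.65% of windows held. In JUN (chr1:58784096-58784125, minus strand) they mark TGACATCA, 67 bases before the start, which 2.37% of windows held and which is known as the element through which JUN and ATF2 act on the JUN gene.
JUNB: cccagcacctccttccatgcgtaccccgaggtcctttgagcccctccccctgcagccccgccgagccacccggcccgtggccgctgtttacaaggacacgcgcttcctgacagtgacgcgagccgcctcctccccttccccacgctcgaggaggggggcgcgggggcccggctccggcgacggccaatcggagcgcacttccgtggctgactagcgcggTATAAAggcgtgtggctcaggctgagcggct
JUND: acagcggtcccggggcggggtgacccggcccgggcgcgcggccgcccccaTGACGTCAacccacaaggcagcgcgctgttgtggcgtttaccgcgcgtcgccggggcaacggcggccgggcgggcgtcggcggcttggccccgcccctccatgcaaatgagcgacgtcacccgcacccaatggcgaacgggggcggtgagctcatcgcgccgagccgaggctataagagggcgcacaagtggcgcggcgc
JUN: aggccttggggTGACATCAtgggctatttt
None of these matches overlapped another. The canonical AP-1 element TGACTCA was in the window of 0 of the 9 members found in the promoter table, beside 4.2% of all windows, and FOSL1 was not in that table. A match describes letters only, and the absence of one holds only for this window.

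Per unit of transcript length the make-up of the JUN family differed between the groups, and here parental replicate 2 did not stand apart. In deposited TPM (which divides by gene length), JUNB supplied 32.3%, 31.8% and 31.4% of the summed TPM of the 3 JUN genes in liver-derived libraries and 23.5%, 24.0% and 23.6% in parental libraries. JUN supplied 15.4%, 14.7% and 14.8% in liver-derived libraries and 19.7%, 19.5% and 20.0% in parental libraries. JUND supplied 52.3%, 53.5% and 53.8% in liver-derived libraries and 56.8%, 56.4% and 56.3% in parental libraries. For each of the 3 shares the groups did not overlap, and the two-sided exact permutation test gave p = 0.1, the smallest p that 3 libraries against 3 allow. The mean JUNB share was 8.11 percentage points higher in liver-derived cells and the mean JUN share fell by 4.77 points, differences many times the SD within a group (0.438 and 0.261 points for JUNB, 0.380 and 0.250 points for JUN).

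The summed TPM of the JUN genes was 616, 590 and 621 in liver-derived libraries and 546, 626 and 523 in parental libraries, with parental replicate 2 the highest of all 6 (two-sided exact permutation p = 0.4). The FOS genes summed to 22.8, 24.5 and 24.8 TPM in liver-derived libraries and 17.3, 17.2 and 17.1 TPM in parental libraries, without overlap (two-sided exact permutation p = 0.1). JUN genes thus exceeded FOS genes 26.9-, 24.1- and 25.0-fold in liver-derived libraries and 31.5-, 36.4- and 30.6-fold in parental libraries (two-sided exact permutation p = 0.1). Within the FOS family FOSL2 was the largest contributor in every library, with 62.7%, 59.2% and 54.6% in liver-derived libraries and 55.9%, 49.4% and 51.6% in parental libraries. Those ranges overlapped, through liver-derived replicate 3, as did the ranges of the FOS, FOSB and FOSL1 shares (exact permutation p = 0.2 for FOSL2, FOSB and FOSL1 and 0.9 for FOS).

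**Figure D2:**
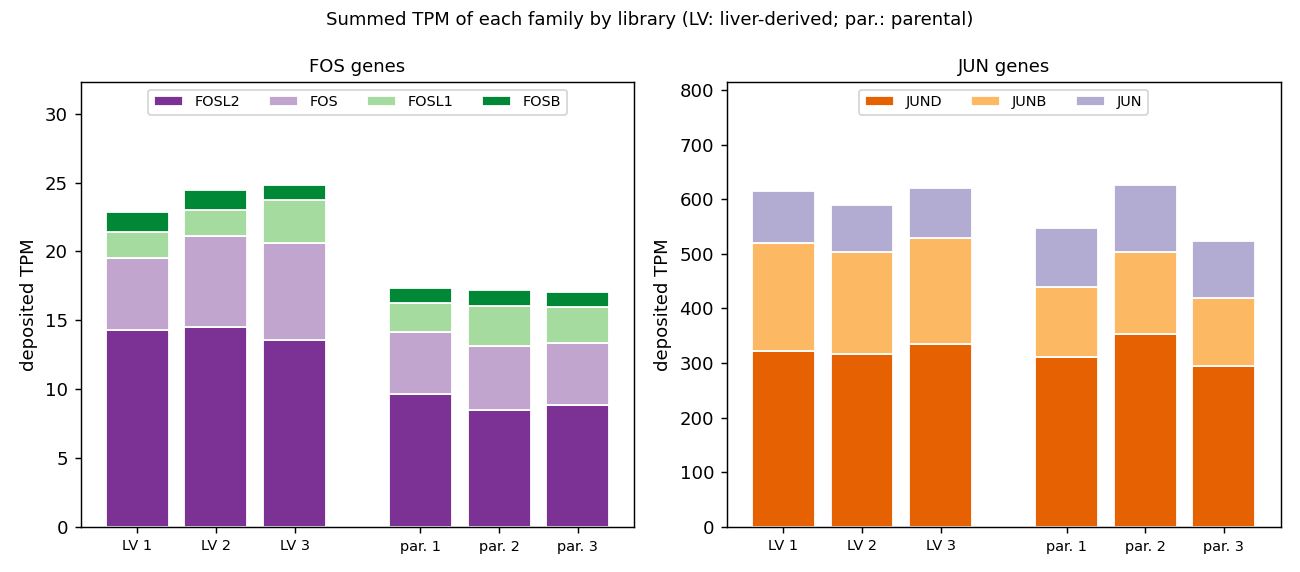
Deposited TPM (vertical axes) stacked for the FOS genes (left panel) and the JUN genes (right panel) in each liver-derived library (LV) and each parental library (par.). The FOS stacks reach 22.8 to 24.8 TPM in liver-derived libraries and 17.1 to 17.3 TPM in parental libraries, while the JUN stacks overlap between groups and differ in the size of the JUNB block.

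EGR1, a zinc finger immediate early factor induced through serum response factor, changed the most of the 10 genes, in the opposite direction to FOS. EGR1 (ENSG00000120738, chr5:138465490-138469315, plus strand) fell to 7.95, 7.23 and 8.38 CPM in liver-derived libraries, against 17.3, 16.8 and 16.5 CPM in parental libraries. No liver-derived library came near the parental range, and parental replicate 2 lay between the other parental libraries. The log2 fold change of EGR1 was -1.10 with an SE of 0.09 (edgeR adjusted p = 1.3e-05), a 2.14-fold lower level, and -1.09 without parental replicate 2 (edgeR adjusted p = 3.34e-15). Its promoter window, 250 bases before the RefSeq start (GRCh38.p14, chr5:138465229-138465478, plus strand, 5′ to 3′), is shown because it holds a pair of CArG boxes, the core of the serum response element, in capitals at 105 and 83 bases before the start.
EGR1: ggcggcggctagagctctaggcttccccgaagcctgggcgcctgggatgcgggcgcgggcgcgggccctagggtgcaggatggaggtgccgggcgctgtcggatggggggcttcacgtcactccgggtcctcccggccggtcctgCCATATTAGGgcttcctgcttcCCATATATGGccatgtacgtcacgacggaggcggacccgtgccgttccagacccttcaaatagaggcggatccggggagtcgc
A CArG box was present in 1.16% of all windows and in no other member's window. The EGR elements GCGTGGGCG and GCGGGGGCG were searched too: the first was in 0 members (0.72% of windows), and the second was in 1, in windows of JDP2 (4.72% of windows).

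IER2 (ENSG00000160888, chr19:13150415-13154908, plus strand), an immediate early gene for a nuclear protein without a known DNA-binding domain, was the member with the smallest fitted difference with all 6 libraries; without parental replicate 2 or after the GC correction described below, FOSL1 had the smallest. It had 119, 112 and 120 CPM in liver-derived libraries and 115, 132 and 105 CPM in parental libraries. The groups overlapped also without parental replicate 2, since parental replicate 1 lay within the liver-derived range. The log2 fold change of IER2 was 0.0007 with all libraries (95% interval -0.21 to 0.21, edgeR adjusted p = 0.996) and 0.10 without parental replicate 2 (95% interval 0.02 to 0.17, edgeR adjusted p = 0.0198). IER2 shares 946 exon bases with a gene on the opposite strand that had 0 counts in every library.

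JDP2, the JUN dimerization protein that pairs with JUN proteins and represses transcription from AP-1 and cyclic AMP response elements, had the largest rise among the members. JDP2 (ENSG00000140044, chr14:75427716-75474111, plus strand) was at 6.78, 6.66 and 7.003 CPM in liver-derived libraries and 3.66, 4.25 and 3.73 CPM in parental libraries. All liver-derived values lay well above all parental values. JDP2 had a log2 fold change of 0.81 with an SE of 0.10 (edgeR adjusted p = 0.000219) and 0.88 without parental replicate 2 (edgeR adjusted p = 5.23e-09). An antisense gene, JDP2-AS1, shares 26 exon bases with JDP2 and held 8 to 28 counts.

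**Figure D3:**
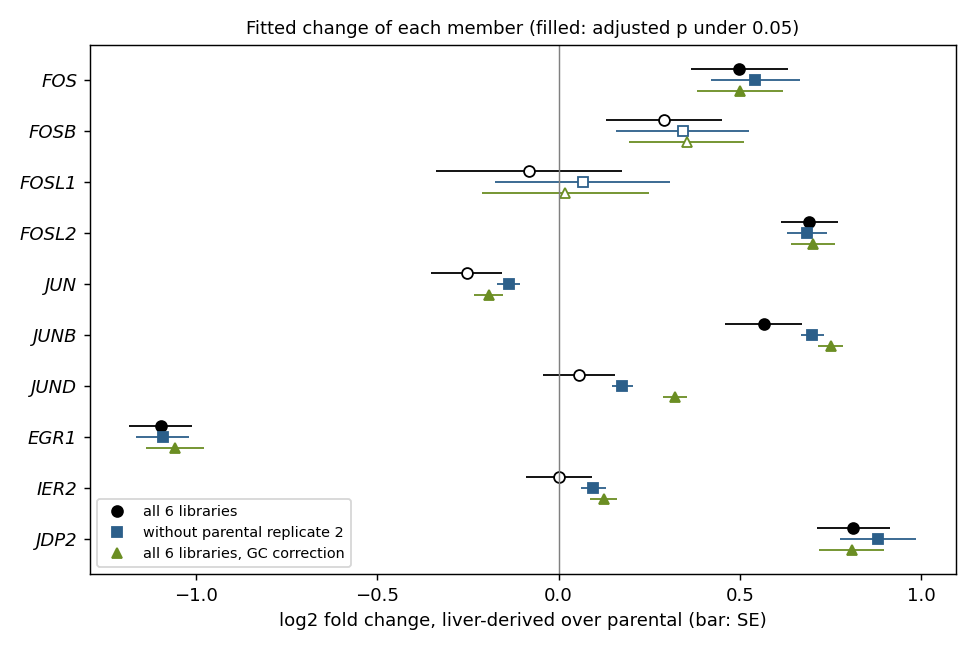
Log2 fold change, liver-derived over parental (horizontal axis, bar: SE), of each gene with all 6 libraries (circles), without parental replicate 2 (squares) and with all 6 libraries after correction for GC content (triangles); filled symbols have an adjusted p under 0.05. EGR1 stays near -1.1 and FOSL2 near 0.7 in all 3 fits, while JUND and IER2 are filled only without parental replicate 2 or after the correction.

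Ordered by TPM, JUND was highest in both groups, at 324 ± 9.34 TPM in liver-derived cells and 320 ± 30.4 TPM in parental cells (SD, n = 3 each). In liver-derived cells JUNB (194 TPM), IER2 (134 TPM), JUN (91.2 TPM), FOSL2 (14.1 TPM), EGR1 (8.79 TPM), FOS (6.29 TPM), JDP2 (3.84 TPM), FOSL1 (2.29 TPM) and FOSB (1.35 TPM) followed, and the ranges of neighbours in that order did not overlap. In parental cells the order was IER2 (137 TPM), JUNB (134 TPM), JUN (112 TPM), EGR1 (19.4 TPM), FOSL2 (8.99 TPM), FOS (4.56 TPM), FOSL1 (2.52 TPM), JDP2 (2.25 TPM) and FOSB (1.13 TPM). There the ranges of IER2 and JUNB overlapped, as did those of FOSL1 and JDP2. EGR1 and FOSL2 thus stood in the opposite order in the 2 groups, with FOSL2 above EGR1 in all 3 liver-derived libraries and EGR1 above FOSL2 in all 3 parental libraries.

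Parental replicate 2 departed from its group in a way that followed GC content. For all tested genes the median of its log2 CPM minus the mean of the other parental libraries ran from -0.63 at a transcript GC content of 30% to 35% up to 0.36 at 65% to 70%, while the medians of the 3 liver-derived libraries stayed between -0.016 and 0.018 across those bins. The transcript GC content of the members ran from 51.5% for JDP2 to 69.7% for JUND. In parental replicate 2 the deviation was 0.41 for FOSL1, 0.36 for JUNB, 0.33 for JUND, 0.31 for JUN, 0.26 for IER2, 0.20 for JDP2, 0.16 for FOSB and 0.15 for FOS, whereas it was -0.015 for FOSL2 and -0.0072 for EGR1. The library was thus high for 8 of the 10 genes and close to its group for FOSL2 and EGR1.

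After a smooth correction for GC content within each library, with all 6 libraries kept, the deviation of parental replicate 2 was 0.013 for JUNB, -0.07 for JUND, 0.09 for JUN and -0.05 for IER2. It was 0.14 for FOSL1, 0.099 for JDP2, 0.018 for FOS and -0.077 for FOSB. For FOSL2 and EGR1, close to their group before the correction, it was -0.16 and -0.20 after it. In that fit the same 8 genes passed as without parental replicate 2, 6 higher and 2 lower, beside 56.5% of all tested genes (27.4% higher and 29.2% lower). With the correction and all 6 libraries the log2 fold change was 0.75 for JUNB, 0.32 for JUND, -0.19 for JUN and 0.12 for IER2 (edgeR adjusted p = 3.43e-10, 1.72e-06, 0.00107 and 0.0121). The same 6 and 2 passed when the correction was applied without parental replicate 2, beside 59.6% of all genes (29.2% higher and 30.5% lower). The correction used deviations from the mean of all libraries in the fit, so it also alters GC trends between the groups. Without parental replicate 2 the log2 fold change of JUND was 0.18 before the correction and 0.29 after it. FOSB and FOSL1 did not pass in any of 20 alternative fits, and FOSL2, JUNB, EGR1 and JDP2 passed in all 20. By ranges of CPM alone, 6 members did not overlap between the groups with all libraries (54% of tested genes) and 8 did not without parental replicate 2 (71.9% of tested genes). What set parental replicate 2 apart was not tested.

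**Figure D4:**
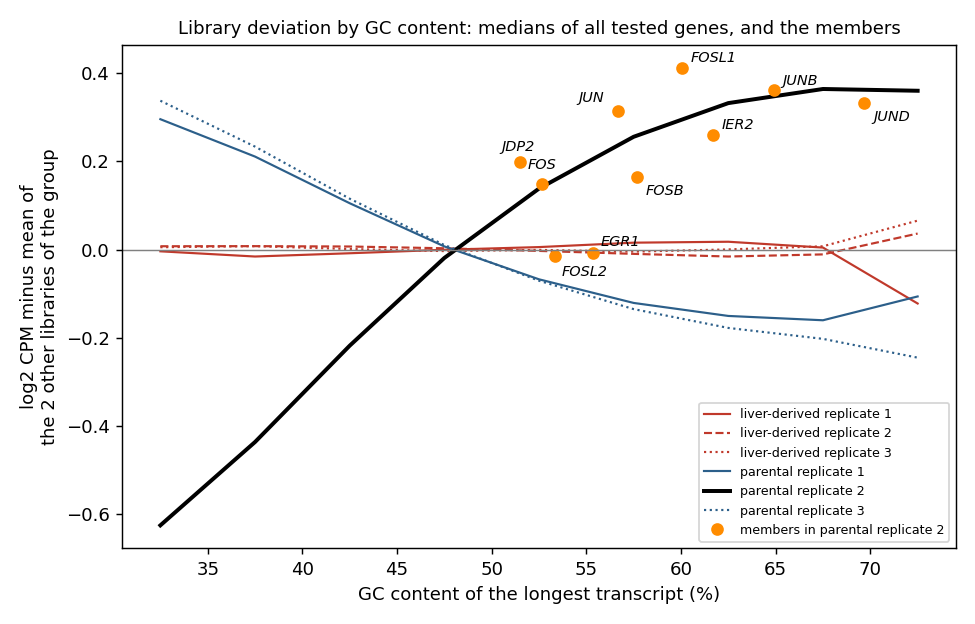
Deviation of each library from the other libraries of its group (vertical axis, log2 CPM) against transcript GC content (horizontal axis, percent), as medians of all tested genes per GC bin (lines) and as values of the 10 members in parental replicate 2 (orange points). The line of parental replicate 2 climbs from -0.63 to 0.36 and most members lie close to it, with FOSL2 and EGR1 near 0.

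Around the members, the other immediate early genes were called more often as higher than as lower. Of 28 genes of this kind, which answer the same signals, 26 were tested. With all libraries 13 passed as higher and 4 as lower, with a median log2 fold change of 0.29, and 15 and 4 passed without parental replicate 2. The shares of all genes were 17.5% higher and 21.3% lower with all libraries, and 28.8% and 31% without that library. CCN2, a secreted matrix protein gene, rose to 14.8 ± 0.414 CPM in liver-derived cells, against 3.23 ± 0.133 CPM in parental cells (log2 fold change 2.2, edgeR adjusted p = 1.88e-07). NR4A2, an orphan nuclear receptor gene, rose to 10.5 ± 1.01 CPM in liver-derived cells, against 2.94 ± 0.451 CPM in parental cells (log2 fold change 1.84, edgeR adjusted p = 8.07e-06). TRIB1, a pseudokinase gene, fell to 27.4 ± 0.312 CPM in liver-derived cells, against 91.9 ± 4.42 CPM in parental cells (log2 fold change -1.75, edgeR adjusted p = 2.29e-07). BTG2, ZFP36 and GADD45B also fell; they are named after seeing their values, and had log2 fold changes of -1.60, -0.57 and -0.75. EGR3, a relative of EGR1, had 0.550 CPM in liver-derived cells and 0.761 CPM in parental cells and did not pass (edgeR adjusted p = 0.208).

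Other basic leucine zipper partners went both ways. Of 13 genes 11 were tested, with 4 higher and 3 lower (median log2 fold change -0.18), and 5 higher and 4 lower without parental replicate 2. The shares called among all genes were 38.8% with all libraries and 59.8% without that library. MAF, a large MAF factor, was at 0.935 CPM in liver-derived cells and 4.76 CPM in parental cells (log2 fold change -2.33, edgeR adjusted p = 2.47e-06). BATF3, a partner of JUN proteins that can oppose AP-1 activation, was at 1.31 CPM in liver-derived cells and 3.80 CPM in parental cells (log2 fold change -1.55, edgeR adjusted p = 0.000105). The 4 that rose, named after their values were seen, were MAFF, ATF7, MAFG and ATF3, with log2 fold changes of 0.94, 0.46, 0.35 and 0.33.

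Of 22 tested upstream kinases and serum response partners, 3 were higher, 4 lower and 15 not called with all libraries (median log2 fold change -0.12). Among all tested genes 38.8% were called in that fit. This list depended on single libraries, with 5 higher and 10 lower without parental replicate 2, beside 28.8% higher and 31% lower among all genes. It had 1 higher when any one of liver-derived replicates 1 to 3 or parental replicate 1 was left out, and 2 lower without liver-derived replicate 2 or 3. MAPK3, the ERK1 kinase, was at 36.7 CPM in liver-derived cells and 57.8 CPM in parental cells (log2 fold change -0.65, edgeR adjusted p = 0.000755). ELK3, a ternary complex partner of serum response factor, was at 4.58 CPM in liver-derived cells and 6.37 CPM in parental cells (log2 fold change -0.47, edgeR adjusted p = 0.00961). RPS6KA5, the MSK1 kinase, was at 13.1 CPM in liver-derived cells and 9.56 CPM in parental cells (log2 fold change 0.45, edgeR adjusted p = 0.00941). SRF itself did not pass with all libraries, at 101 CPM in liver-derived cells and 95.9 CPM in parental cells (log2 fold change 0.08, edgeR adjusted p = 0.549), and passed without parental replicate 2 (log2 fold change 0.18, edgeR adjusted p = 3.25e-06).

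Feedback inhibitors of MAP kinase signalling, phosphatases and SPRY or SPRED proteins that damp the pathway, were called in both directions. Of 15 genes 7 were higher, 3 lower and 5 not called (median log2 fold change 0.23), and 9 were higher and 3 lower without parental replicate 2. Among all genes 17.5% were higher and 21.3% lower with all libraries, and 28.8% and 31% without that library. DUSP4 rose to 57.9 ± 1.56 CPM in liver-derived cells, against 15.2 ± 0.883 CPM in parental cells (log2 fold change 1.93, edgeR adjusted p = 2.07e-07). DUSP2 fell to 8.41 ± 0.543 CPM in liver-derived cells, against 36.7 ± 5.41 CPM in parental cells (log2 fold change -2.13, edgeR adjusted p = 1.77e-06). SPRED3 was at 1.24 CPM in liver-derived cells and 2.16 CPM in parental cells (log2 fold change -0.82, edgeR adjusted p = 0.00191).

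Among corepressors and ubiquitin ligases that act on the members, 7 of 8 genes were tested, with 2 higher, 2 lower and 3 not called (median log2 fold change 0.09); 1 was higher when any one liver-derived library was left out. BATF3 (lower) and JDP2 (higher), described above, are among the called genes, and JDP2 is itself a member. The ubiquitin ligase genes FBXW7, COP1 and ITCH made up the 3 not called (edgeR adjusted p = 0.429, 0.48 and 0.464). Their names were added with the values already known. They did not pass without parental replicate 2 either (edgeR adjusted p = 0.54, 0.362 and 0.56). The calls in this list thus concern no ubiquitin ligase. NAB2, a corepressor of EGR1 whose gene is itself an EGR1 target, fell to 20.8 ± 0.880 CPM in liver-derived cells, against 38.5 ± 6.86 CPM in parental cells (log2 fold change -0.89, edgeR adjusted p = 0.000495). Its relative NAB1, named after its value was seen, was at 39.3 CPM in liver-derived cells and 30.1 CPM in parental cells (log2 fold change 0.38, edgeR adjusted p = 0.0178).

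Of 20 known AP-1 target genes 16 were tested, with 5 higher, 3 lower and 8 not called (median log2 fold change 0.25), and 6 higher and 2 lower without parental replicate 2; the GC correction with the replicate block gave 8 higher. VEGFA, the angiogenic growth factor gene, rose to 177 ± 1.32 CPM in liver-derived cells, against 77.0 ± 2.89 CPM in parental cells (log2 fold change 1.2, edgeR adjusted p = 1.28e-06). SPP1, the osteopontin gene, was at 1.15 ± 0.219 CPM in liver-derived cells and 0.442 ± 0.169 CPM in parental cells (log2 fold change 1.34, edgeR adjusted p = 0.00736). VIM, the vimentin gene, was at 14.0 ± 4.02 CPM in liver-derived cells and 26.0 ± 3.25 CPM in parental cells (log2 fold change -0.89, edgeR adjusted p = 0.00598), and it did not pass without parental replicate 2 (edgeR adjusted p = 0.0626). The other called targets, named after their values were seen, were CCND1, FN1 and CD44 as higher and TIMP1 and MMP1 as lower, with log2 fold changes of 0.66, 0.43, 0.31, -0.83 and -0.98. All these lists were described by their counts and medians only. Among all genes 17.5% were higher and 21.3% lower with all libraries, and 28.8% and 31% without parental replicate 2. ATF3, DUSP1, BATF3 and JDP2 each stand in more than 1 list.

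**Figure D5:**
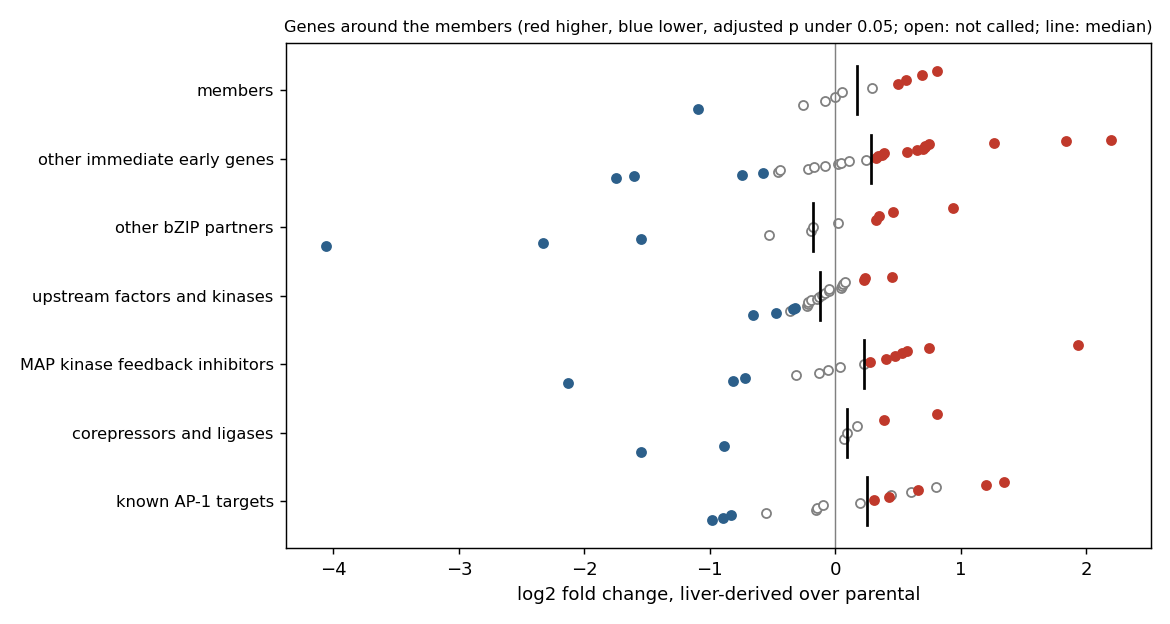
Log2 fold change, liver-derived over parental (horizontal axis), of every tested gene in the members' list and in 6 related lists (rows), with red for higher, blue for lower and open for not called at an adjusted p under 0.05, and a vertical line at the median of each list. Medians run from -0.18 for the other basic leucine zipper partners to 0.29 for the other immediate early genes.

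The genes whose pattern over the 6 libraries was most like that of 3 members were found among 9733 protein-coding genes with a mean of at least 10 CPM, by Pearson's r of log2 CPM. For EGR1 these were ANG, LEF1 and BORCS5, with r of 0.999, 0.998 and 0.998, and 896 genes reached r of at least 0.95. For JUN they were CCR10, HOOK2 and GNPTG, with r of 0.998, 0.997 and 0.997, and 490 genes reached 0.95. For FOS they were POLR1D (r = 0.99), S100A10 (r = 0.98) and YBX3 (r = 0.98), and 22 genes reached 0.95. These correlations describe 6 libraries in 2 groups, and for JUN they include the high value of parental replicate 2.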

How the data were processed

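PolyA-selected TruSeq libraries of 3 liver-derived and 3 parental 22Rv1 samples were sequenced as paired reads, per the labels' protocols; groups came from the sample titles. The submitters' processing notes name Trimmomatic 0.36, STAR 2.5.2b, Subread 1.5.2 with featureCounts, and the build GRCh38. The sources used here give no options, annotation release or strand setting. The authors deposited whole-number counts per gene for each library and 1 table of TPM, whose values matched those recomputed from counts and lengths within a relative difference of 4.82e-05; 1 parental column of that table ends in spreadsheet error cells outside the gene rows, which were left out.

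Counts were tested with edgeR 4.0.16 in R 4.3.3 (filterByExpr, TMM, robust quasi-likelihood, group as the only term), with p-values adjusted over all 19255 genes tested and a threshold of 0.05; all 10 members passed the filter. SE and 95% intervals come from that fit, CPM are TMM-scaled, and SD are over 3 libraries. Shares were compared by exact permutation over libraries. Gene positions are those of the deposited tables and matched GENCODE 29 for all 10 members; promoter sequences are RefSeq's, and 9 of 10 members were found. GC content is that of the longest GENCODE 29 transcript, and its correction was a lowess curve per library. The main edgeR fit and the DESeq2 and limma-voom fits were tested on simulated counts without a GC trend. The other fits, the GC correction and the permutation of shares were not.

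The members and lists were chosen with earlier results of these data known. Named were all members, the 3 called genes of largest change with at least 1 CPM in the higher group from each related list, 1 such gene from each marker list, and the 3 most alike genes for FOS, JUN and EGR1; other names are marked, and 1 gene that the rule took is not reported here. Alternatives were other scaling factors, other filters, DESeq2 1.42.0, limma-voom and limma 3.58.1 on log2(TPM + 1) or log2(TPM + 0.1), each library left out, the replicate number as a block, and the GC correction; the GC correction without parental replicate 2 was added after seeing the data. The design text speaks of a further condition, not analysed here.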

Additional observations from a re-analysis of the deposited data

How the results depend on the processing

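FOSL2, JUNB, EGR1 and JDP2 kept their direction and passed in all 20 alternative fits, and FOSB kept its direction and passed in none. The log2 fold change of FOS fell short of the threshold in limma on log2(TPM + 1) without a filter (0.38) and ranged from 0.40 to 0.63 with 1 library left out. JUN, not called with all libraries, passed with library size alone (-0.30), no filter (-0.27), log2(TPM + 0.1) (-0.29), log2(TPM + 1) with or without a filter (-0.28 each), the GC correction (-0.19), the GC correction with the replicate block (-0.19) and the GC correction without parental replicate 2 (-0.16), and ranged from -0.32 to -0.14 with 1 library left out. In the same 3 GC fits JUND passed at 0.32, 0.32 and 0.29 and IER2 at 0.12, 0.12 and 0.11; with 1 library left out JUND ranged from -0.022 to 0.18 and IER2 from -0.073 to 0.096. The near-zero value of IER2 turned negative, uncalled, with library size alone (-0.049), both filtered log2(TPM) fits and the unfiltered one (-0.034 each), no filter (-0.0114) and upper-quartile factors (-0.0125). FOSL1, uncalled throughout, turned positive in the 3 GC fits (0.019, 0.0009 and 0.063) and ranged from -0.40 to 0.075 with 1 library left out. The members called lower were 2 in every fit in which JUN passed, the 3 GC fits, library size alone, no filter and the 3 log2(TPM) fits, and 1 to 2 with 1 library left out; those called higher were 3 to 6. Over all genes the 3 GC fits called 5268, 5106 and 5797 higher, and fits with 1 library left out called 2432 to 5714 higher and 3168 to 6156 lower. Same-numbered libraries of the 2 groups did not deviate together (correlations -0.0483, -0.0232 and 0.0787), so the numbers were not taken as pairs. With the replicate number as a block 4 members were higher and 1 lower, as without it, and 3169 genes were higher and 3883 lower. The upstream kinases and partners had 1 to 5 higher and 2 to 10 lower across alternatives (1 higher with the replicate block). The shares within a family do not depend on library scaling. FOSB and FOSL1 rest on 28 to 120 counts a library, the fewest of the members, and the cause of these dependences was not tested.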
